A study of Mus musculus with 4 samples.

Results

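The genes described here are Apba1, Lrrc3b and C130074G19Rik, 3 of the 23337 genes listed in the count data. They were chosen as neuronal genes whose level was about halved or more in cells lacking lamin B1, in each of 2 experimental groups of mice. That choice used the difference between genotypes, so the size of their fall is described here and is not tested. The libraries came from sorted Tomato-positive cells of 4 mice, each a sample of its own, after regeneration of the olfactory epithelium. Sorted cells of 2 mice were mutant (Lmnb1-/-) and those of 2 mice were control (Lmnb1+/-). In the study, such cells arise in K5Cre;Lmnb1 fl/fl mice, whose tissue is a mosaic of mutant and unrecombined cells, and in K5Cre;Lmnb1 fl/+ littermates. All mice were of mixed background and had recovered for 4 weeks from methimazole at 50 mg/kg, a drug that damages the epithelium. All carried K5Cre, a Cre transgene driven by the keratin 5 promoter, and R26Ai9, a reporter that makes the red protein Tomato after recombination. Keratin 5 is made in horizontal basal cells, the reserve stem cells of this tissue, so the sorted cells are these stem cells and everything they gave rise to: progenitors, neurons and supporting cells. Experimental group 1 comprises control 1 and mutant 1, and experimental group 2 comprises control 2 and mutant 2. The mice of one experimental group shared parents, age, sex, treatment and handling. The study names litter, batch and treatment as differences between the experimental groups, so those factors cannot be told apart. Whether age or sex also differed between the groups was not given. Ages were not given by sample.

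Olfactory sensory neurons carry odorant receptors on their cilia and release glutamate from axon terminals in the olfactory bulb. Apba1 encodes Mint1, also called X11 alpha, a neuronal adaptor with a phosphotyrosine-binding domain and PDZ domains. Mint1 is found at presynaptic terminals in a complex with the scaffold proteins Cask and Lin7, and its phosphotyrosine-binding domain binds the amyloid precursor protein App. Lrrc3b encodes a small membrane protein with leucine-rich repeats. C130074G19Rik is named after a cDNA clone and encodes a short protein.

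Apba1 lies on chromosome 19 at 23758887 to 23949596 on the plus strand (mm10), has 2 annotated transcripts, and its longest reading frame has 842 codons. Lrrc3b lies on chromosome 14 at 15357515 to 15438987 on the minus strand, has 3 transcripts, and every one of them carries the same number of codons, 259. C130074G19Rik lies on chromosome 1 at 184871926 to 184883218 on the minus strand and has 1 transcript of 2 exons with 141 codons. The 3 genes therefore lie on separate chromosomes. Exons of Apba1 overlap those of the antisense gene AC148021.1, and exons of Lrrc3b overlap B230110C06Rik on the opposite strand. Neither of these has a count of its own, and the strand setting of the counting was not given, so their reads could not be told apart from those of Apba1 and Lrrc3b.

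The promoters are shown because their CpG content differs among the genes. They are written 5′ to 3′ on the strand of the gene, with CpG dinucleotides in capitals, and are limited to bases upstream of every annotated transcript start (RefSeq, GRCm38.p6). They cover chr19:23758626-23758805 for Apba1, chr14:15438988-15439237 for Lrrc3b and chr1:184883219-184883286 for C130074G19Rik.
Apba1: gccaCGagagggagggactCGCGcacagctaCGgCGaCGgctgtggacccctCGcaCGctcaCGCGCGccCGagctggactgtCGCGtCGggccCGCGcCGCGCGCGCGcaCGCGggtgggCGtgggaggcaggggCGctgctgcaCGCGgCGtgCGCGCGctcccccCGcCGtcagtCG
Lrrc3b: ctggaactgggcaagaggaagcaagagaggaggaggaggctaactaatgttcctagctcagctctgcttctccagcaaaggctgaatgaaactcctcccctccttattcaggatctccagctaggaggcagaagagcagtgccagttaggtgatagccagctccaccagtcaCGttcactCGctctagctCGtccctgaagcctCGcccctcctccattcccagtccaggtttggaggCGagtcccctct
C130074G19Rik: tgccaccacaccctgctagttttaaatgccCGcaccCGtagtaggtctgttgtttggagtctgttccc

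The promoter of Apba1 was dense in CpG, whereas that of Lrrc3b was not. In the 250 bases before the RefSeq start, Apba1 had 49 CpG dinucleotides (percentile 99.9 of all promoters), C130074G19Rik had 15 (percentile 72.7) and Lrrc3b had 5 (percentile 44.4), against a median of 6 over all promoters. For Apba1 and C130074G19Rik this window runs past another annotated start and so beyond the printed bases. The printed bases hold 35 CpG in 180 bases for Apba1 and 2 in 68 bases for C130074G19Rik. GC content was 81.6% for Apba1, 61.6% for C130074G19Rik and 56.0% for Lrrc3b, with a median of 52.4% over all promoters. Both strands of these 250 bases were searched for CCCNNGGG, the core bound by Olf1/Ebf factors, and for TAATTA, a homeodomain core. Neither set of letters was found for any of the 3 genes. CCCNNGGG was in 11.8% and TAATTA in 4.84% of 32851 promoter windows of the same length. The 3 genes thus shared neither CpG density nor these motifs.

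Reads assigned to genes numbered 14833396 to 23704638 per sample. Mutant 1 stood apart, with 39.4% of its uniquely aligned reads outside genes compared with 22.1% to 24.9% in the other samples. The targeted gene, Lmnb1, had 477 and 395 counts in control 1 and control 2, and 326 and 149 in mutant 1 and mutant 2. Only exon 2 is deleted, the count sums all exons and the controls are heterozygous (Lmnb1+/-), so this count is a weak check of the deletion. The study itself reported depletion of the Lmnb1 transcript in sorted mutant cells, by PCR of exons outside the deleted one. It also found most Tomato-positive cells of mutant tissue negative for lamin B1 by staining. Lmnb1 had a log2 fold change of -0.72 (SE 0.31) and did not pass the threshold (edgeR likelihood-ratio test, adjusted p = 0.195).

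Levels are given as CPM, counts scaled to the library total with TMM factors, and are divided by the exon length in kb only where genes are compared with each other. Apba1 stood at 122 CPM in control 1 and 95.7 in control 2, against 59.8 in mutant 1 and 31.9 in mutant 2. Both mutants lay below both controls, and the lowest sample was mutant 2. Mutant cells had 48.8% of the control level in experimental group 1, and 33.4% in the other group. The log2 fold change from the model with genotype and experimental group was -1.30 (SE 0.18, 2 mutants and 2 controls). These values rest on 2833, 2009, 1378 and 470 reads in control 1, control 2, mutant 1 and mutant 2.

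Lrrc3b stood at 72.3 CPM in control 1 and 36.2 in control 2, against 28.4 in mutant 1 and 13.7 in mutant 2. Control 1 was well above control 2, and mutant 1 lay closer to control 2 than control 2 did to control 1. The mutants still lay below both controls. Within experimental groups the fall was nearly the same, to 39.4% of the control level in group 1 and to 38.0% in group 2, and the log2 fold change was -1.37 (SE 0.20). Its lowest count, 202 reads in mutant 2, has an exact 95% Poisson interval of 175 to 232. Such intervals cover counting error only.

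C130074G19Rik stood at 77.3 CPM in control 1 and 60.3 in control 2, against 32.9 in mutant 1 and 20.2 in mutant 2. As for Apba1, the controls lay closer together than either did to a mutant. Mutant cells had 42.7% of the control level in experimental group 1 and 33.6% in the other group, and the log2 fold change was -1.398 (SE 0.18). Reads numbered 1788, 1266, 759 and 298 in control 1, control 2, mutant 1 and mutant 2.

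**Figure D1:**
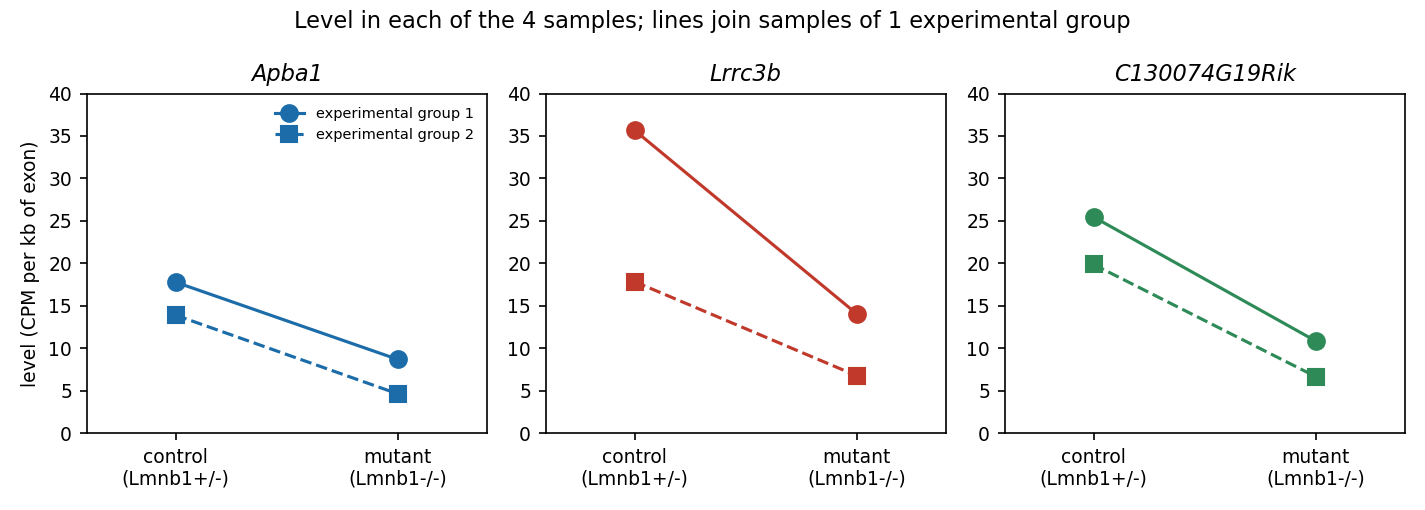
Level of each gene in CPM per kb of exon in control and mutant cells, with 1 point per sample and lines joining the samples of 1 experimental group. Every line falls, experimental group 2 lies below experimental group 1 throughout, and the steepest line is that of Lrrc3b in experimental group 1, from 35.7 to 14.04 CPM per kb.

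Both mutants lay below both controls for 3 of 3 genes, as for 13.3% of the 15438 genes tested. A fall of at least 1 log2 unit in both experimental groups was seen for 1.37% of genes tested, and 4.3% were called lower in mutants at an adjusted p under 0.05 (1.28% were called higher). The 3 genes were picked on this contrast, so no conclusion was drawn from these shares. The weaker of the log2 ratios of the experimental groups was -1.03 for Apba1, -1.34 for Lrrc3b and -1.23 for C130074G19Rik. Near a halving, among genes with a mean of at least 10 CPM, Kcnc4 (-1.0003 and -2.18) and Stom (-1.003 and -1.83) were just inside, and Sec14l5 (-0.9998 and -2.12) and Hic2 (-0.998 and -1.04) were just outside, as log2 ratios in experimental groups 1 and 2. The median log2 fold change of all genes tested was -0.0086.

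Lengths were used to order the levels of the 3 genes. In controls, Lrrc3b had 26.8 ± 12.6 CPM per kb (SD, n = 2), C130074G19Rik 22.7 ± 3.96 and Apba1 15.8 ± 2.75. Apba1 was the lowest of the 3 in every sample. Lrrc3b and C130074G19Rik did not differ beyond their spread, and they changed places: Lrrc3b was 1.401 times C130074G19Rik in control 1 and 0.898 times in control 2. In mutants the means were 10.4 ± 5.15 for Lrrc3b, 8.75 ± 2.96 for C130074G19Rik and 6.65 ± 2.87 for Apba1, which is the same order with overlapping ranges. The level of Apba1 relative to C130074G19Rik was steadier, at 0.698 and 0.699 in control 1 and control 2, 0.800 in mutant 1 and 0.695 in mutant 2.

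To ask how the genes varied along a contrast their choice did not use, experimental group 2 was compared with experimental group 1 in the same model. The choice did use the ratio of each group, which can favour genes whose 2 ratios agree and so have low dispersions. Their dispersions lay at percentiles 18.7 (Apba1), 26.6 (Lrrc3b) and 14.3 (C130074G19Rik) of genes tested. The p-values below rest on these dispersions and are not fully free of the choice. All 3 were lower in experimental group 2 (edgeR likelihood-ratio test, adjusted over all genes), where 31.6% of genes tested passed in either direction, 2156 lower and 2729 higher. Lrrc3b differed most, with a coefficient of -1.03 (SE 0.20, edgeR adjusted p = 3.72e-06), a level 2.04-fold lower. Apba1 had a coefficient of -0.62 (SE 0.18, edgeR adjusted p = 0.00342) and C130074G19Rik one of -0.52 (SE 0.18, edgeR adjusted p = 0.0156). Differences between these coefficients were not tested.

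The direction was the same within each genotype. Control 2 differed from control 1 by a log2 ratio of -0.997 for Lrrc3b, and by -0.36 for both Apba1 and C130074G19Rik. Mutant 2 differed from mutant 1 by -1.05 for Lrrc3b, -0.91 for Apba1 and -0.70 for C130074G19Rik. In a fit of experimental group without genotype none of the 3 genes passed (edgeR adjusted p = 0.469 for Apba1, 0.119 for Lrrc3b and 0.554 for C130074G19Rik). The call for C130074G19Rik was also lost under DESeq2 (adjusted p = 0.0904) and when low genes were kept (edgeR adjusted p = 0.0936). When 1 sample was left out, genotype could not be kept in the model, and the coefficient of Apba1 was 0.076 without control 1, -1.49 without control 2, -0.95 without mutant 1 and 0.082 without mutant 2. For C130074G19Rik it was 0.27, -1.42, -0.95 and 0.14 in the same order, and for Lrrc3b -0.21, -1.85, -1.55 and -0.47. The 3 genes passed without control 2, Lrrc3b passed without mutant 1 (edgeR adjusted p = 0.0158), and the other calls were lost.

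**Figure D2:**
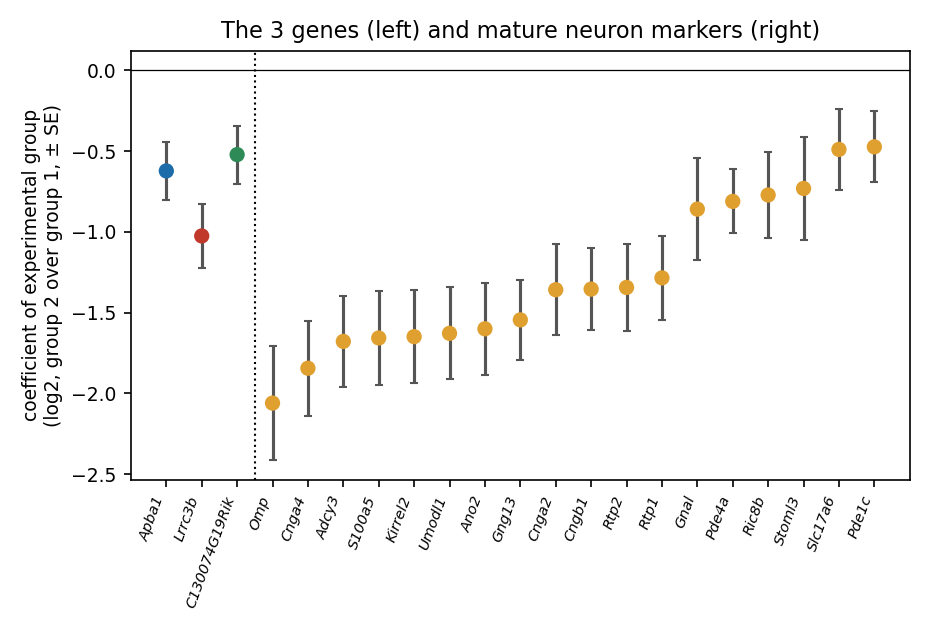
Coefficient of experimental group, in log2 units of group 2 over group 1 with the SE of the fit, for the 3 genes on the left and 18 mature neuron markers on the right. All points lie below 0, and the 3 genes, from -1.03 to -0.52, sit at the weaker end of the markers, which run from -2.06 for Omp to -0.47 for Pde1c.

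Markers of mature olfactory neurons fell along with the 3 genes. All 18 listed markers passed as lower in mutants (edgeR likelihood-ratio test, adjusted p under 0.05), with a median log2 fold change of -1.32. Of all genes tested, 4.3% were called lower, and the median was -0.0086. Omp, the olfactory marker protein gene, stood at 9665 CPM in control 1 and 3267 in control 2, against 5359 in mutant 1 and 912 in mutant 2. Omp was higher in mutant 1 than in control 2. Both mutants lay below both controls for 7 of the 18 markers, and for 13.3% of all genes tested. The 3 genes were chosen on the genotype difference, so their own lack of overlap does not set them apart from the markers. Without the replicate block 0 of the 18 passed, and DESeq2 called 13.

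The mature markers and the 3 genes were set side by side in each experimental group. The choice of genes about halved in both groups fixes a low ratio in experimental group 1, so these comparisons are a description only. The 18 markers had a mean log2 ratio of -0.83 in experimental group 1, against -1.68 in experimental group 2. In experimental group 1, 1 marker fell further than Apba1 and 0 fell further than Lrrc3b or C130074G19Rik. In experimental group 2, 11 of 18 fell further than Apba1, 14 further than Lrrc3b and 12 further than C130074G19Rik. Relative to the marker mean, the 3 genes changed by -0.20 (Apba1), -0.51 (Lrrc3b) and -0.39 (C130074G19Rik) in log2 units in experimental group 1. In experimental group 2 they changed by 0.097, 0.29 and 0.11. With 1 mutant and 1 control in each experimental group this difference has no test.

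**Figure D3:**
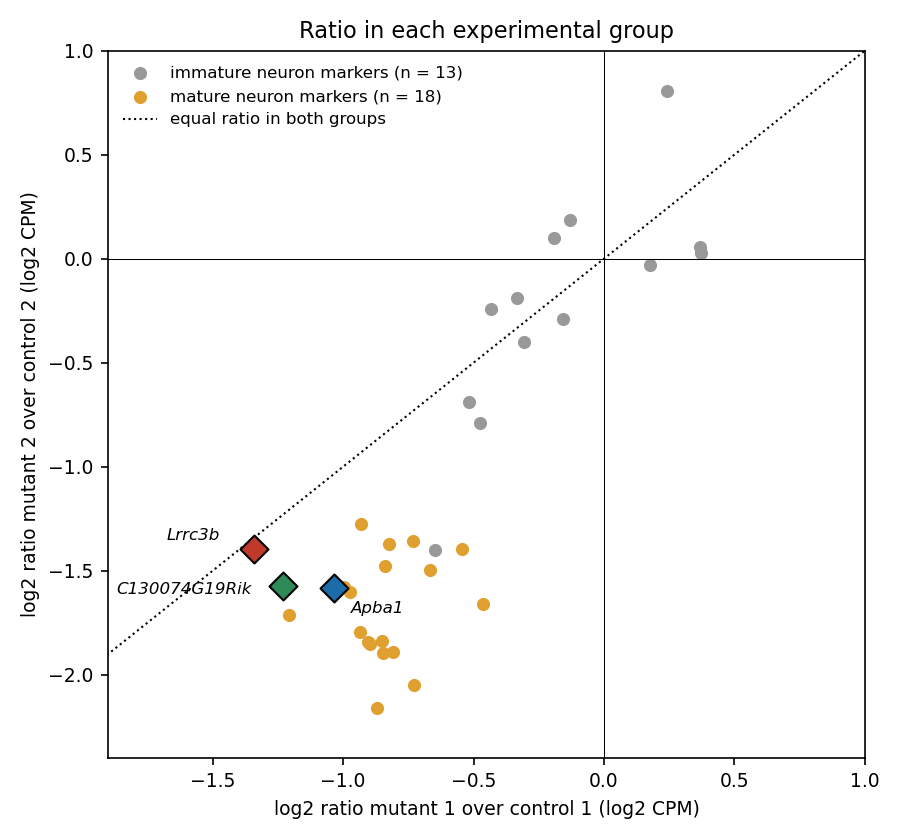
Log2 ratio of mutant over control in experimental group 1 (horizontal) and 2 (vertical) for the 3 genes (diamonds), 18 mature and 13 immature neuron markers, with a dotted line where both ratios are equal. Lrrc3b lies almost on the line at -1.34 and -1.39, Apba1 and C130074G19Rik lie below it, and most mature markers lie further below it.

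Other cell types in the sorted population were followed through marker lists. For comparison, 4.3% of all genes tested were called lower and 1.28% higher. Of 13 immature neuron markers 2 passed as lower, Dcx and Stmn4, with a median log2 fold change of -0.22. Of 8 progenitor markers 4 passed as higher (Kit, Hes6, Mki67 and Top2a), and of 8 horizontal basal cell markers 2 did (Krt15 and Egfr), compared with 6 under DESeq2 and 1 under the quasi-likelihood test. These markers are named after their values were seen.

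Supporting and blood cells gave a mixed picture. None of 9 sustentacular cell markers passed in edgeR's likelihood-ratio test (2 were higher at an unadjusted p under 0.05), whereas the quasi-likelihood test called 1 and DESeq2 called 3, all higher. None of 14 leukocyte markers tested passed in any of these 3 tests (0 at an unadjusted p under 0.05), and Cd3e, Cd79a and Cd52 were at 0 in at least 1 sample. Of 7 ensheathing glia markers only Fabp7 passed as lower. Of these 7, 5 had a negative log2 fold change, and Sox10 (0.072, SE 0.36) and Frzb (0.83, SE 0.89) did not. Of 6 ciliated cell markers Foxj1, Tekt1 and Ccdc40 passed as lower, and DESeq2 called 2 of the 6. Rsph1 (-0.63, SE 0.27), Dnah9 (-0.18, SE 0.20) and Dnah5 (0.18, SE 0.18) did not pass. Among all genes tested, 4.3% were called lower and 1.28% higher. 

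Summed over each list, mature neuron markers had 10843 to 23915 CPM in controls and 3257 to 12953 in mutants, and immature neuron markers 2440 to 2994 and 2003 to 2383. Progenitor markers had 267 to 271 CPM in controls and 403 to 475 in mutants. Horizontal basal cell markers had 1567 to 2181 and 2071 to 3086, and sustentacular cell markers 6256 to 11240 and 8144 to 14854. Leukocyte markers had 679 to 799 and 358 to 833, ensheathing glia markers 69.1 to 132 and 56.5 to 61.4, and ciliated cell markers 335 to 541 and 185 to 436. The leukocyte sum hides opposite differences between controls. Lyz2 had 223 CPM in control 1 and 693 in control 2, whereas Cd74 had 240 and 76.5. The median coefficient of experimental group 2 over 1 in the leukocyte list was -1.32. The part of these shifts in the fall of the 3 genes was not tested. In sorted bulk cells, fewer mature neurons and less RNA per neuron cannot be told apart.

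The other Mint proteins and the known partners of Mint1 were examined to place Apba1 among them. Of 21 genes, all tested, 4 passed as lower in mutants (19.05%), 0 passed as higher, and the median log2 fold change was -0.34. Over all genes tested, 4.3% were called lower and 1.28% higher, with a median of -0.0086. Apba2, which encodes the neuronal relative Mint2, stood at 92.5 CPM in control 1 and 69.4 in control 2, against 68.6 in mutant 1 and 35.1 in mutant 2. Mutant 1 was level with control 2, and the log2 fold change was -0.70 (SE 0.19, edgeR likelihood-ratio test, adjusted p = 0.00619). Apba3, which encodes the widely expressed Mint3, had 37.0, 32.1, 34.2 and 29.1 CPM in the same order, a log2 difference of -0.13 (SE 0.21, edgeR adjusted p = 0.868). Per kb of exon, Apba2 stood above Apba1 in every sample, at 24.2 and 18.1 CPM per kb in control 1 and control 2.

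Beside Apba2, the genes that passed were Cacna1b, a presynaptic calcium channel subunit, with -0.67 (SE 0.18, edgeR adjusted p = 0.0062), Aplp1, a relative of App, with -0.80 (SE 0.25, edgeR adjusted p = 0.033), and Nrxn2, a neurexin, with -0.77 (SE 0.25, edgeR adjusted p = 0.0439). Nrxn2 did not pass under the quasi-likelihood test (adjusted p = 0.0893) or DESeq2 (adjusted p = 0.133), and Aplp1 was no longer called when low genes were kept (edgeR adjusted p = 0.337). Cask, the scaffold bound by Mint1, had a log2 fold change of -0.19 (SE 0.18) and App one of -0.12 (SE 0.27), with edgeR adjusted p of 0.706 and 0.923. These scaffold and substrate genes are expressed far beyond neurons, and whether this bears on their values was not tested.

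The machinery of vesicle fusion at the presynaptic terminal was examined next. Of 18 genes 12 passed as lower (66.7%), 0 passed as higher, and the median log2 fold change was -0.77. The same values over all genes tested were 4.3% lower, 1.28% higher and a median of -0.0086. Syt1, the calcium sensor of release, had 180 and 125 CPM in the controls and 101 and 45.3 in the mutants, a log2 difference of -1.14 (SE 0.20, edgeR adjusted p = 5.88e-06). The largest other falls with small p were those of Sv2a, a vesicle glycoprotein, by 1.08 (SE 0.20, edgeR adjusted p = 2.16e-05), and of Stxbp5l, which encodes tomosyn-2, by 1.06 (SE 0.19, edgeR adjusted p = 6.21e-06). Snap25, a SNARE protein of the plasma membrane, had 104 CPM in each control and 73.9 and 46.5 CPM in the mutants, a log2 difference of -0.82 (SE 0.19, edgeR adjusted p = 0.00114).

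Sv2b, Syp, Cplx2 and Syn2, which encode proteins of or acting on the synaptic vesicle, had log2 fold changes of -0.90, -0.99, -0.78 and -0.76. Rab3a, Napb, Nsf and Unc13a passed too. Of the 12, Napb and Unc13a did not pass under the quasi-likelihood test (adjusted p = 0.0785 and 0.0614) or DESeq2 (adjusted p = 0.0754 and 0.158). Vamp2, the vesicle SNARE, was not called, at -0.45 (SE 0.20, edgeR adjusted p = 0.208). 

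Cell surface proteins with leucine-rich repeats were examined beside Lrrc3b. Of 43 listed genes 28 were expressed enough to be tested, 5 passed as lower (17.9%), 0 passed as higher, and the median log2 fold change was -0.077. Among all genes tested, 4.3% were called lower and 1.28% higher, with a median of -0.0086. Lrrc3, the nearest relative of Lrrc3b by name, stood at 5.27 CPM in control 1 and 2.62 in control 2, against 3.38 in mutant 1 and 4.07 in mutant 2. It was lower in the mutant of one experimental group and higher in that of the other (log2 fold change -0.014, SE 0.65, edgeR adjusted p = 0.998). Lrrc3c, listed under its older symbol Gm12, had 17 to 34 counts per sample and was not tested. Per kb of exon, Lrrc3 had 1.23 and 0.61 CPM per kb in the controls, where Lrrc3b had 35.7 and 17.8.

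Rtn4rl1, a relative of the Nogo receptor of axons, stood at 123 CPM in control 1 and 58.6 in control 2, against 59.1 in mutant 1 and 18.98 in mutant 2. Mutant 1 was level with control 2, as for Apba2, and the log2 fold change was -1.33 (SE 0.19, edgeR adjusted p = 3.53e-09). Lingo1, which acts with the Nogo receptor, fell by 0.99 in log2 units (SE 0.18, edgeR adjusted p = 1.08e-05). Lrrn1, Flrt1 and Amigo1, all neuronal adhesion or guidance proteins, had -0.97, -0.90 and -0.63, and Amigo1 did not pass under DESeq2 (adjusted p = 0.0782). Most of this family did not pass, among them Lrig1 (0.18, SE 0.20) and Lingo2 (-0.46, SE 0.22). Many of the genes that did not pass had low levels and wide SEs, so that even 2-fold differences went uncalled. Examples are Lrrn2 (mean 8.58 CPM, -1.11, SE 0.45) and Amigo2 (mean 3.62 CPM, 1.09, SE 0.64). The share that passed is therefore no measure of how many genes of this family changed.

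**Figure D4:**
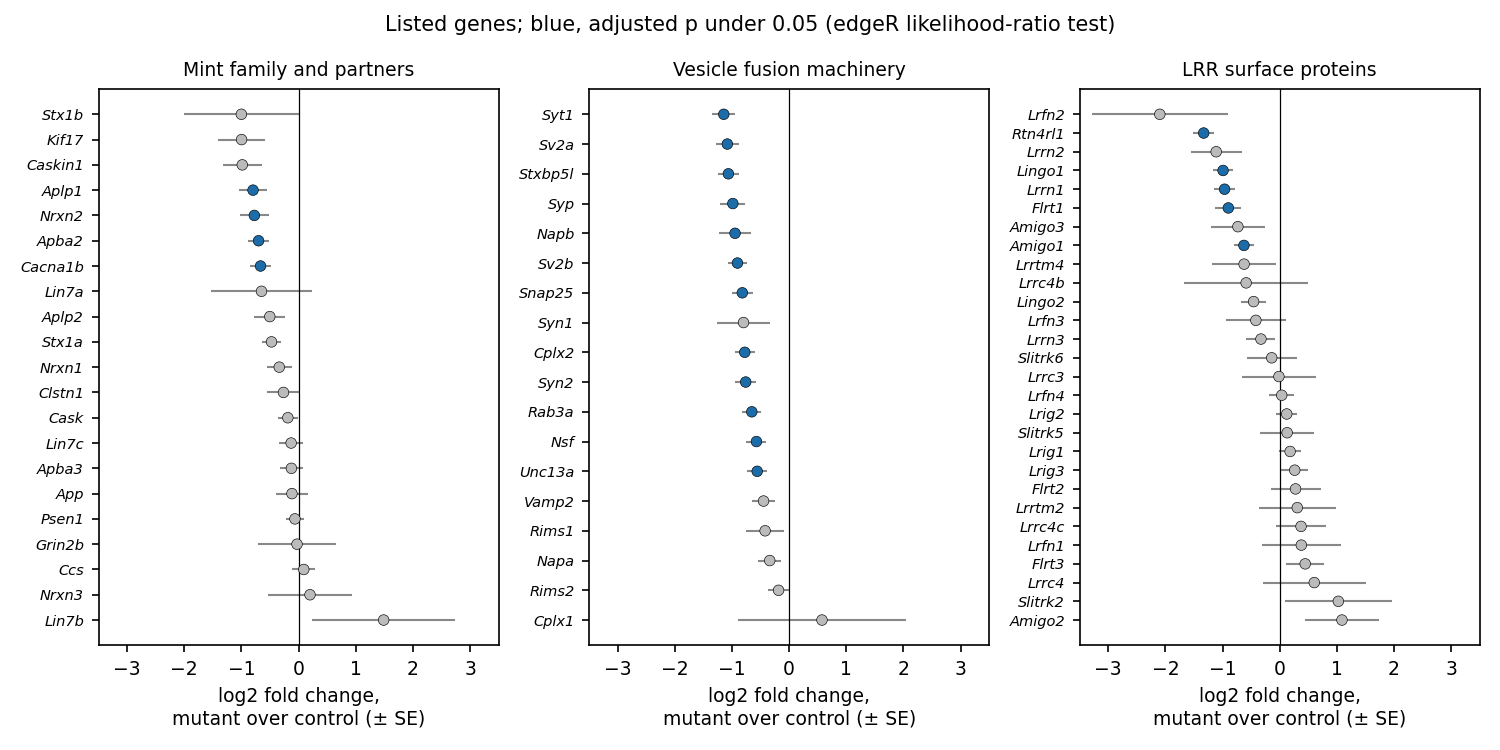
Log2 fold change of mutant over control with the SE of the fit for each tested gene of the 3 lists, with genes past an adjusted p of 0.05 in blue. Blue points fill most of the vesicle fusion list (12 of 18) and few of the Mint list (4 of 21) and of the leucine-rich repeat list (5 of 28), and no gene is blue on the right of 0. Genes with few reads have wide SEs and can differ without being blue.

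Each of these calls needed the pairing of mutant and control within experimental groups. Without the replicate block, 0 genes of the Mint, vesicle fusion and leucine-rich repeat lists passed in edgeR, and 0, 2 and 2 had a negative fold change at an unadjusted p under 0.05. When control 1, control 2, mutant 1 or mutant 2 was left out, which removes the block, 0 genes of these lists passed.

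Genes next to Apba1, Lrrc3b and C130074G19Rik were examined because neighbouring genes can share chromatin. Of up to 3 nearest listed genes on each side of each, 16 in all, 13 were tested. In edgeR's likelihood-ratio test and in the quasi-likelihood test 0 passed in either direction. Over all genes tested, 4.3% were called lower and 1.28% higher, so 0 of 13 is near the share of all genes. DESeq2 also called 0, but gave no adjusted p for 1700028P14Rik, Mamdc2, Fam189a2, Il3ra and Oxsm. Of the 13 neighbours, 1 was lower and 1 was higher at an unadjusted p under 0.05 in the likelihood-ratio test. Their median log2 fold change was -0.086. Apba1 lies 27.2 kb from Ptar1 (log2 fold change -0.086, SE 0.28) and 23.2 kb from Fam189a2 (-0.37, SE 0.34), with 1700028P14Rik (-0.61, SE 0.43) and Mamdc2 (0.038, SE 0.47) further away.

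Lrrc3b has no listed gene nearer than Nek10, a kinase gene, at 345 kb. Nek10 had 28.05 and 35.9 CPM in the controls and 22.5 and 14.4 in the mutants, and its log2 fold change of -0.81 (SE 0.29) had an edgeR adjusted p of 0.0801. Slc4a7, Oxsm, Ngly1 and Top2b had 0.15, 0.51, 0.079 and -0.12. Il3ra, a low gene with 0.432 to 5.03 CPM, had 1.86 (SE 0.77, edgeR adjusted p = 0.245).

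C130074G19Rik is 13.6 kb from Mark1, a microtubule-affinity kinase gene with a log2 fold change of -0.082 (SE 0.21), and 25.5 kb from Mosc2, a mitochondrial reductase gene with -0.093 (SE 0.18). Rab3gap2, further away, had -0.14 (SE 0.16). These 3 genes had SEs near that of C130074G19Rik itself. Mir1981, Mosc1 and Snora36b had at most 10 counts in any sample and were not tested.

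**Figure D5:**
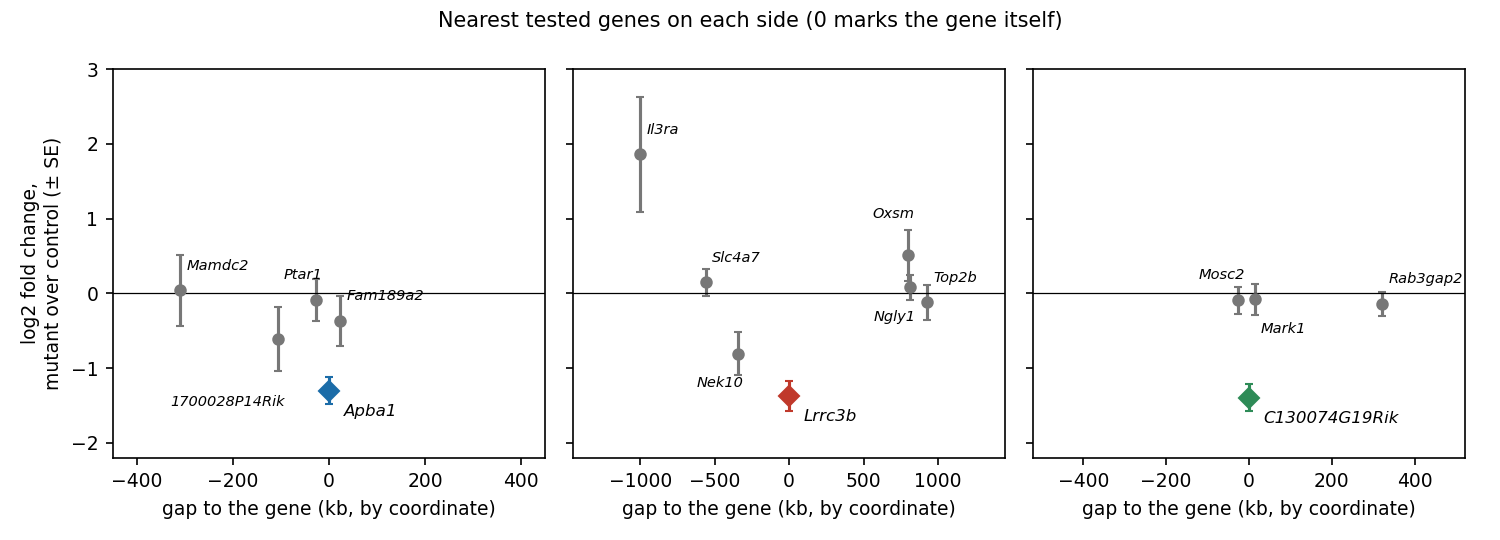
Log2 fold change of mutant over control with the SE of the fit for Apba1, Lrrc3b and C130074G19Rik (diamonds) and their nearest tested genes (circles), by the gap in kb towards lower or higher coordinates. The neighbours of C130074G19Rik lie close to 0 on both sides, and Nek10 at -0.81 is the lowest of the neighbours.

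The genes most like each of the 3 across the 4 samples were found by the root mean square (RMS) difference of log2 CPM centred on each gene's mean, among genes with a mean of at least 10 CPM. These profiles hold the genotype difference that chose the 3 genes, and all rest on the same libraries. Nearest to Apba1 were Fhad1 (0.066 log2 units), C130074G19Rik (0.086), Syt4 (0.10), Ric8b (0.11) and Ddo (0.11), while the median over 10746 genes was 0.79. C130074G19Rik in turn had Apba1 as its nearest gene, followed by Syt4, Slc1a2, Fhad1 and Ddo at 0.12 to 0.14. Apba1 and C130074G19Rik thus shared Fhad1, Syt4 and Ddo among their 5 nearest genes.

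Nearest to Lrrc3b were Adam23 (0.073), Olfr727 (0.088), Gadl1 (0.088), Ncan (0.095) and Jam3 (0.096). None of these 5 was among the nearest of Apba1 or C130074G19Rik. Lrrc3b ranked 91 among the genes most like Apba1, at 0.23. Adam23, a surface protein of the ADAM family, had 58.5, 31.4, 26.1 and 12.5 CPM in control 1, control 2, mutant 1 and mutant 2, the same order of samples as for Lrrc3b. Syt4, a synaptotagmin, had 32.8, 26.1, 16.8 and 10.2 CPM, which is again that order, as it is for Apba1 and C130074G19Rik.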

How the data were processed

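RNA-seq of Tomato-positive sorted cells was analysed in 2 control and 2 mutant samples, grouped by the labels. The deposited files hold unnormalised counts of reads for each gene symbol. The authors counted with HTSeq (intersection-nonempty mode) after removal of ribosomal reads with Bowtie2 2.0.6 and alignment with TopHat2 2.0.7 to mm10. The version of HTSeq, its strand setting and its annotation are not given in the sources used here. The 5 tally lines (43.1% to 77.7% of the sum of all lines) entered neither library sizes nor tests. Positions and exon lengths come from GENCODE M21, to which 97.79% of symbols could be joined (20915 current and 1906 older symbols). Promoter sequences come from RefSeq.

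Genes above 1 CPM in at least 2 samples were tested in edgeR 4.0.16 (R 4.3.3) with TMM factors, common, trended and tagwise dispersions, a model of genotype and experimental group, and likelihood-ratio tests with Benjamini-Hochberg adjustment over all genes (threshold 0.05). The test, model and filter rule are those of the study, whose own code counted tally lines as genes, so its library totals, its filter and the set of genes it tested differ from those used here. SEs are Wald errors. Ratios within an experimental group use log2 CPM with a prior count of 2. The test was checked on simulated data. Each sample is a separate mouse, and mutant and control are paired by the group number in the labels. The study states that such a pair shared parents, age, sex and preparation. Across genes, samples of one number deviated together from the means of their genotypes (r = 0.52), and genes are not independent replicates.

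Alternatives were the quasi-likelihood test, DESeq2 1.42.0, RLE factors, no filter, a filter on all 4 samples, subtraction of an even background from mutant 1, no replicate block, and leaving out each sample. Depth gave counts of 202 to 2833 for Apba1, Lrrc3b and C130074G19Rik. A count of 3, taken as the floor, is 0.127 to 0.202 CPM. The genes and all lists were chosen with earlier results of these data known. Named genes are the 3 genes, their closest relatives, list genes past the threshold (at most 8 a list with values), up to 3 nearest genes on each side, the 5 most similar profiles, Omp and Lmnb1. List genes that did not pass, other than Apba3 and Lrrc3, and markers other than Omp were named after their values were seen. Some genes are not reported here and were left out of lists and counts of neighbours.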

Additional observations from a re-analysis of the deposited data

Results flagged for a closer look

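The tally of reads that fell outside genes, which enters no comparison, was 39.41% of unique alignments for mutant 1, more than for either control. Spread evenly by exon length at the density seen in genes at 0 in the other samples, this background would account for 0.903% of the Apba1 count, 0.558% of the Lrrc3b count and 0.722% of the C130074G19Rik count of mutant 1.

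Some results went one way in experimental group 1 and the other in experimental group 2, each with 1 mutant and 1 control, and these differences were not tested. The median log2 ratio of leukocyte markers was -1.64 in experimental group 1 but 1.20 in the other, a difference of 2.84. Ensheathing glia markers differed by 1.66 (from -1.58 to 0.081).

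Lrrc3 had ratios of -0.63 and 0.62, a difference of 1.24, at 2.62 to 5.27 CPM. The neighbour of Apba1 named 1700028P14Rik had 0.30 and -1.54, a difference of -1.84. Smaller differences of this kind were found for Mamdc2 (0.43), Top2b (-0.30) and Mark1 (0.28).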

How the results depend on the processing

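With 1 sample or 1 experimental group left out, log2 fold changes ranged from -1.78 to -0.83 for Apba1, -1.99 to -0.76 for Lrrc3b and -1.78 to -1.03 for C130074G19Rik. Their sign is fixed by the choice of the genes, and these fits hold fewer samples and no block. The coefficients of experimental group ranged from -1.49 to 0.082 for Apba1 (0.076 without control 1, 0.082 without mutant 2), -1.85 to -0.21 for Lrrc3b and -1.42 to 0.27 for C130074G19Rik (0.27 without control 1, 0.14 without mutant 2) when 1 sample was left out, in fits without genotype, so that these mix both factors. With all samples and no genotype term they were -0.51, -1.01 and -0.45 (edgeR adjusted p = 0.469, 0.119 and 0.554) for Apba1, Lrrc3b and C130074G19Rik. For C130074G19Rik the coefficient was -0.54 in DESeq2 (adjusted p = 0.0904) and -0.46 without a filter (edgeR adjusted p = 0.0936), and the cause was not tested. Lower genes numbered 2 instead of 4 in the Mint list without a filter, when 21975 genes were tested and the median of all genes was 0.14. With no replicate block 0 Mint, 0 vesicle fusion and 0 leucine-rich repeat genes passed, compared with 4, 12 and 5, and the range without 1 sample was 0 to 0 for each list. Over all genes 0 were then lower and 6 higher, and 348 had an unadjusted p under 0.05. Higher genes of these 3 lists, and neighbouring genes in either direction, numbered 0 past the threshold under every alternative run. Counts were lowest in mutant 2, where those of Apba1, Lrrc3b and C130074G19Rik were 470, 202 and 298.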
